A study of Mus musculus with 12 samples.

Results

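The opioid receptors and the precursors of the opioid peptides are 7 genes of the 55487 in the count table, chosen by name because their products are the named targets of loperamide or the peptides that act on those targets. They are the receptor genes Oprm1 (mu), Oprd1 (delta), Oprk1 (kappa) and Oprl1 (nociceptin), and the precursor genes Penk (enkephalins), Pdyn (dynorphins) and Pomc (beta-endorphin and the melanocortins). They were measured by mRNA sequencing in Min6, an insulin-producing line from an insulinoma of a transgenic mouse in which the insulin promoter drives the SV40 large T antigen. All 12 libraries come from Min6 cells kept for 48 h with 1 of 4 additions, and each addition has 3 libraries: AS1842856, an inhibitor of the transcription factor FoxO1, at 1 µM (FoxOi), loperamide at 5 µM (Loperamide), both compounds together (FoxOi_Loperamide), or the solvent DMSO alone (DMSO). Nothing in the labels says that libraries of the same group were separate cultures, so that p-values measure only the spread between these libraries, which may be technical.

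Opioid receptors are G protein-coupled receptors of the Gi/o class: when bound they lower cyclic AMP, open inwardly rectifying potassium channels and close voltage-gated calcium channels. Their peptides are cut from large precursors by prohormone convertases inside secretory granules, and once released enkephalins bind mainly the delta and mu receptors, dynorphins the kappa receptor and beta-endorphin the mu receptor. Loperamide is an agonist of the mu receptor that is used against diarrhoea, and the drug pump ABCB1 limits its entry into the brain.

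The upstream sequences of the 2 members that fell with the FoxO1 inhibitor, Pdyn and Oprm1, are shown first, as the region just before 1 annotated start of each gene. Each is the 250 bases before a RefSeq transcript start in GRCm38.p6, 5′ to 3′ on the gene's own strand, and capitals mark the CCAAT box or its reverse complement. The Pdyn window is chr2:129699939-129700188 on the minus strand, and the Oprm1 window is chr10:6788320-6788569 on the plus strand. The RefSeq start used for Pdyn lies outside the gene as the count table's annotation places it, upstream of its 5′ end. Bases just after this start were not found in a GENCODE transcript of Pdyn, while those after the other Pdyn start were. The Oprm1 start lies inside the gene as annotated, downstream of its first RefSeq start, whose own window is chr10:6758343-6758592.
Pdyn: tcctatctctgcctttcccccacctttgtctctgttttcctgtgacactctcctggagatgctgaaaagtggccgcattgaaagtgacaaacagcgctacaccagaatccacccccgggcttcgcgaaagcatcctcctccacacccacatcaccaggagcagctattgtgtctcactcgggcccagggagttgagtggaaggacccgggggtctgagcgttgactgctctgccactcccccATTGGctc
Oprm1: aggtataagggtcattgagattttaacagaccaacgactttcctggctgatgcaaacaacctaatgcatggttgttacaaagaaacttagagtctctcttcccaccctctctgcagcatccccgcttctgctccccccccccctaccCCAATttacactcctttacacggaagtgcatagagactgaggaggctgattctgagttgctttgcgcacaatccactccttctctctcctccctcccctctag
RefSeq tables held promoters for 5 of the 7 members, with 10 starts in all. In those windows 5 motifs were searched on both strands, none of which is contained in another: the cyclic AMP response element TGACGTCA, the forkhead site GTAAACA, the CCAAT box, the GC box GGGCGG and the TATA box TATAAA. The first is in 1.55% of all 32851 mouse promoter windows of this length and the forkhead site in 3.17%, and neither was found in a window of any member. The CCAAT box, in 33.8% of all windows, begins 8 bases before the start in Pdyn and 103 bases before it in Oprm1, in the windows shown. The window at the first Oprm1 start holds none of the 5 motifs, and that of the other Pdyn start has a CCAAT box 102 bases before it. The GC box, in 32.7% of all windows, was found 4 times before the Oprd1 start, in a window that is 80.0% G and C, and 1 time in Pomc, which also has a TATA box 25 bases before its start (12.4% of all windows). In 1 of the Oprl1 windows a TATA box on the other strand lies 140 bases before the start. The Pdyn and Oprm1 windows were 57.2% and 50.0% G and C, against a median of 52.4%. A match or its absence concerns these letters in these windows only.

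Pdyn was the one abundant member. Its mRNA was among the most abundant in DMSO-treated Min6 cells, fell to 15.8% of that level with the FoxO1 inhibitor, fell less with loperamide, and fell furthest with both. It made up 99.2% of the counts of all members in FoxOi libraries, 99.8% in Loperamide, 97.6% in FoxOi_Loperamide and 99.8% in DMSO. The remaining 6 genes together had 266 counts in the 3 FoxOi libraries, 219 in Loperamide, 210 in FoxOi_Loperamide and 335 in DMSO, of total counts per library between 10640485 (Loperamide replicate 1) and 19499216 (FoxOi replicate 3). A gene was tested where filterByExpr kept it, which held for 16808 genes and for 5 of the 7 members, with Oprk1 and Oprl1 too low. It was called at an adjusted p below 0.05 in edgeR's quasi-likelihood test, with p-values adjusted over the 16808 genes by the Benjamini-Hochberg method. A gene that passes the filter only through a group where it is high had to differ, so counts of called members are given as a description.

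Pdyn, the precursor of dynorphin A, dynorphin B and alpha-neoendorphin (ENSMUSG00000027400, mm10 chr2:129686565-129699844, minus strand), had 9179, 12071 and 9951 counts in FoxOi libraries, 19695, 32148 and 36208 in Loperamide, 3079, 3110 and 2514 in FoxOi_Loperamide, and 55013, 57623 and 50254 in DMSO. None of the 4 groups overlapped with another, and the order FoxOi_Loperamide, FoxOi, Loperamide, DMSO from low to high was the same in counts scaled by TMM to a library of 1000000 (CPM) and in the deposited FPKM, which also divides by transcript length. Pdyn averaged 569 ± 82.4 CPM with FoxOi, 2294 ± 405 with loperamide, 172 ± 20.8 with both and 3597 ± 85.6 in DMSO (SD, n = 3 each). As shares of the DMSO mean these are 15.8%, 63.8% with loperamide and 4.78% with both compounds.

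Ranked by FPKM among all 55487 genes, Pdyn stood between positions 175 and 274 in FoxOi libraries, 23 and 40 in Loperamide, 859 and 1162 in FoxOi_Loperamide, and 20 and 27 in DMSO. Its FPKM averaged 235 ± 35.3 with FoxOi, 953 ± 168 with loperamide, 71.6 ± 8.70 with both and 1500 ± 47.4 in DMSO (SD, n = 3 each). For comparison on the same scale, in DMSO the insulin gene Ins1 averaged 3645 FPKM, Ins2 35326, the glucagon gene Gcg 656 and the somatostatin gene Sst 72.2, so that the dynorphin precursor lay below Ins1 and above Gcg.

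**Figure D1:**
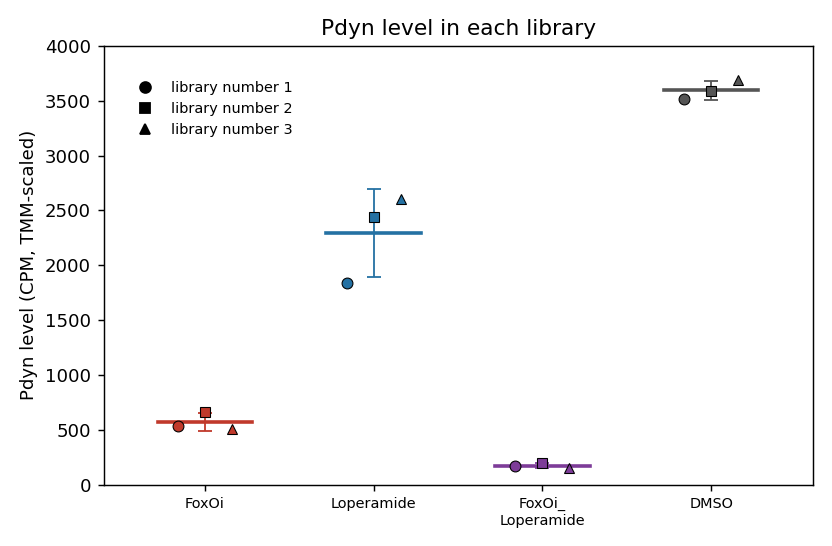
Pdyn level in each library of the 4 groups, as CPM of the TMM-scaled library on a linear axis that starts at 0, with points for the 3 libraries of a group (shaped by replicate number), a horizontal line for the mean and bars for the SD. The groups do not overlap: FoxOi averaged 569 CPM, Loperamide 2294, FoxOi_Loperamide 172 and DMSO 3597.

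In the fit, Pdyn fell by 2.66 ± 0.14 (log2 fold change ± SE) with FoxOi against DMSO (adjusted p = 4.98e-09), by 0.65 ± 0.13 with loperamide (0.00171) and it fell by 4.39 ± 0.15 with both (9.21e-11). Loperamide added to the inhibitor gave a further fall of 1.73 ± 0.14 relative to FoxOi alone (adjusted p = 3.29e-07), and the combination was lower than loperamide alone by 3.74 ± 0.15 (1.24e-09). On the log2 scale the effect of loperamide was larger in the presence of the inhibitor than in its absence. The interaction, the log2 effect of loperamide with FoxOi minus that without, was -1.08 ± 0.19 (adjusted p = 0.00190, edgeR). In CPM the drop was smaller with the inhibitor, from 569 to 172, than without it, from 3597 to 2294. Multiplying the effects of the single compounds gives 363 CPM for the combination, against the 172 CPM measured. The combination stood at 30.2% of the FoxOi level, whereas loperamide alone stood at 63.8% of the DMSO level. Pdyn was called with the same sign in every comparison under each alternative tried, with the interaction between -1.22 and -0.95.

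Beta cell markers were also lower in the groups with the inhibitor, and their part in the levels of Pdyn was not tested. The summed level of 10 beta cell markers was 34627 to 39436 CPM in FoxOi libraries, 62710 to 63128 in Loperamide, 26782 to 31579 in FoxOi_Loperamide and 61045 to 84683 in DMSO, with none at 0, and 8 of the 10 fell with FoxOi, 3 with loperamide and 7 with both. The sum of 9 neuronal markers was 198 to 208 CPM in FoxOi, 307 to 350 in Loperamide, 215 to 243 in FoxOi_Loperamide and 278 to 346 in DMSO, with none at 0. Its members did not move as a group: 3 of the 9 fell and 6 were not called with FoxOi, 2 fell and 2 rose with loperamide, and 4 fell and 2 rose with both, among them Gad1 at 2.07 ± 0.34 (adjusted p = 1.62e-04). The sum of 6 leukocyte markers was 19.1 to 19.4 CPM in FoxOi, 1.60 to 1.87 in Loperamide, 4.46 to 5.12 in FoxOi_Loperamide and 2.42 to 3.96 in DMSO, where Adgre1 was at 0. Only 2 of the 6 were tested. With FoxOi, Cd68 was called at 3.09 ± 0.17 and Csf1r was not called (0.96 ± 0.48, adjusted p = 0.126). With loperamide 1 fell and none rose, and with both 1 rose and 1 fell. Over all genes tested, 20.3% fell and 20.7% rose with FoxOi, 15.8% and 16.1% with loperamide, and 23.2% and 22.3% with both. In these bulk libraries fewer cells expressing a gene and less of its RNA per cell cannot be told apart.

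Penk, the precursor of Met- and Leu-enkephalin (ENSMUSG00000045573, chr4:4133531-4138819, minus strand), fell with loperamide whether or not the inhibitor was present. It had 21, 24 and 21 counts in FoxOi libraries, 1, 5 and 2 in Loperamide, 7, 6 and 7 in FoxOi_Loperamide, and 13, 12 and 15 in DMSO. The loperamide libraries had the fewest counts, overlapping in CPM with those that had both compounds, and every library with loperamide lay below every FoxOi and DMSO library. In CPM the means were 1.20 ± 0.122 with FoxOi, 0.206 ± 0.153 with loperamide, 0.394 ± 0.0284 with both and 0.893 ± 0.185 in DMSO (SD, n = 3 each).

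With loperamide against DMSO, Penk fell by 2.03 ± 0.44 on the log2 scale (adjusted p = 0.00262), a value that was -2.79 without Loperamide replicate 2, the one with 5 counts. With both compounds against FoxOi it fell by 1.59 ± 0.33 (0.00232), and against DMSO by 1.15 ± 0.36 (0.0163), a call lost without DMSO replicate 3 (0.0628). FoxOi alone was 0.44 ± 0.29 above DMSO (adjusted p = 0.252) and the combination 0.87 ± 0.50 above loperamide alone (0.216), neither past the threshold. Its interaction was 0.44 ± 0.57 (0.753). Penk overlaps A830012C17Rik on the other strand, which had 1 count in all 12 libraries. Some markers of other islet cells were lower with loperamide too, and their part in the Penk result was not tested. The sum of 5 alpha cell markers was 887 to 1267 CPM in FoxOi, 123 to 181 in Loperamide, 534 to 706 in FoxOi_Loperamide and 597 to 828 in DMSO. Of the 3 tested, Gcg was the one called with loperamide, at -2.56 ± 0.21, and it was at -0.29 ± 0.19 with both (adjusted p = 0.247). That of 4 delta cell markers was 61.8 to 157 CPM in FoxOi, 11.2 to 23.2 in Loperamide, 13.9 to 25.7 in FoxOi_Loperamide and 48.4 to 90.7 in DMSO, where Hhex was at 0, and the 2 tested, Sst and Rbp4, fell with loperamide and with both.

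Pomc, the precursor of beta-endorphin, ACTH and alpha-MSH (ENSMUSG00000020660, chr12:3954951-3960642, plus strand), was measured at a low level in every library. It had 44, 52 and 43 counts in FoxOi libraries, 29, 34 and 35 in Loperamide, 43, 36 and 28 in FoxOi_Loperamide, and 70, 61 and 28 in DMSO. DMSO replicate 3 lay within the range of the treated groups, while the other two DMSO libraries were above every treated library. The CPM means were 2.54 ± 0.326 with FoxOi, 2.60 ± 0.0944 with loperamide, 2.10 ± 0.342 with both and 3.44 ± 1.25 in DMSO (SD, n = 3 each).

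Pomc was called lower with both compounds than in DMSO, at -0.72 ± 0.25 (adjusted p = 0.0292), and that call depended on single libraries. It was lost without FoxOi_Loperamide replicate 2 (0.0523) or 3 (0.104), without DMSO replicate 1 (0.147) or 2 (0.0998), in the fit to the groups compared alone (0.0747) and on unfiltered FPKM (0.0992). The value was -0.45 ± 0.24 with FoxOi (0.154) and -0.42 ± 0.25 with loperamide (0.232), and both passed the threshold without DMSO replicate 3 (0.0110 and 0.0241). The combination differed from FoxOi by -0.27 ± 0.25 (0.483) and from loperamide by -0.30 ± 0.27 (0.396), and the interaction was 0.15 ± 0.36 (0.867). Among 6 markers of the pituitary cells that make most Pomc, only Crhr1 had a mean of at least 1 CPM in any group, and Tbx19, Avpr1b and Pax7 were at 0 in DMSO. Their summed level was 40.0 to 55.1 CPM in FoxOi, 87.0 to 94.8 in Loperamide, 38.5 to 43.0 in FoxOi_Loperamide and 72.4 to 96.3 in DMSO.

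Oprm1, which encodes the mu receptor that loperamide binds (ENSMUSG00000000766, chr10:6758506-7038198, plus strand), was the receptor gene with a called change: it fell with the FoxO1 inhibitor. It had 14, 7 and 6 counts in FoxOi libraries, 12, 21 and 22 in Loperamide, 22, 14 and 14 in FoxOi_Loperamide, and 35, 24 and 26 in DMSO. On the CPM scale every FoxOi library was below every library of the other groups, while Loperamide overlapped with DMSO and with FoxOi_Loperamide. The CPM means were 0.502 ± 0.272 with FoxOi, 1.43 ± 0.272 with loperamide, 0.975 ± 0.192 with both and 1.88 ± 0.373 in DMSO (SD, n = 3 each).

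Against DMSO, Oprm1 fell by 1.91 ± 0.34 on the log2 scale with FoxOi (adjusted p = 3.77e-04), a call kept under all 14 alternatives. Loperamide alone left it at -0.37 ± 0.30 (adjusted p = 0.376). With both compounds it was called at -0.93 ± 0.30 (0.0218), and this call was lost without FoxOi_Loperamide replicate 2 (0.0677) or 3 (0.0694), without DMSO replicate 1 (0.0828) and on unfiltered FPKM (0.114). The combination was 0.98 ± 0.37 above FoxOi alone (0.0623), with ranges that did not overlap, and passed the threshold without FoxOi replicate 1 (0.0118). The interaction, 1.35 ± 0.47 (0.0922), likewise passed without FoxOi replicate 1 (0.0210). Against loperamide alone the combination was at -0.56 ± 0.33 (0.195). The lower beta cell marker sum of the FoxOi libraries stands beside this result as well, and its part was not tested.

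Oprm1 shares its locus with Ipcef1 and Gm10945 on the other strand, and whether reads were counted by strand is not given in the sources used here. Gm10945 had no counts, and Ipcef1 had 334 to 437 counts per library with FoxOi, 244 to 367 with loperamide, 327 to 381 with both and 402 to 495 in DMSO, more than Oprm1 in each library. The part of Ipcef1 reads in the Oprm1 counts was not tested.

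Oprd1, which encodes the delta receptor for enkephalins (ENSMUSG00000050511, chr4:132110726-132144486, minus strand), was called in no comparison by edgeR's test, although its unadjusted p was 0.0453 with FoxOi and 0.0241 with both compounds against loperamide. It had 8, 9 and 11 counts in FoxOi libraries, 5, 13 and 35 in Loperamide, 8, 9 and 12 in FoxOi_Loperamide, and 10, 21 and 19 in DMSO. The loperamide libraries spread further than those of any other group, from 0.466 to 2.52 CPM, and so spanned nearly the whole range of the data. The CPM means were 0.507 ± 0.0508 with FoxOi, 1.32 ± 1.07 with loperamide, 0.577 ± 0.149 with both and 1.11 ± 0.413 in DMSO (SD, n = 3 each).

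With FoxOi, Oprd1 was at -1.11 ± 0.51 against DMSO (adjusted p = 0.0955), with ranges in CPM that did not overlap. It passed the threshold without the filter (0.0209), in the fit to the groups compared alone (0.0440), without DMSO replicate 1 (0.0385) and with the replicate number as a block (0.0113). With loperamide it was at 0.31 ± 0.45 (0.640), and at -0.56 without Loperamide replicate 3, so that 1 library sets the sign. With both compounds it was at -0.94 ± 0.50 against DMSO (0.144), 0.17 ± 0.56 against FoxOi (0.860) and -1.25 ± 0.50 against loperamide (0.0596). That last value passed the threshold without the filter (0.00906) and without Loperamide replicate 1 (0.0125). The interaction was -0.15 ± 0.73 (0.946).

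The nociceptin receptor gene Oprl1 (ENSMUSG00000027584, chr2:181715016-181720985, plus strand) had 4, 1 and 1 counts in FoxOi libraries, 4, 1 and 0 in Loperamide, 3, 0 and 1 in FoxOi_Loperamide, and 1, 0 and 0 in DMSO, at or near the limit of detection. In a fit without the filter its adjusted p lay between 0.369 and 0.898 over the comparisons. The kappa receptor gene Oprk1, whose product is the main receptor for the dynorphins that Pdyn encodes (ENSMUSG00000025905, chr1:5588466-5606131, plus strand), had 0 counts in all 12 libraries. A count of 0 allows up to 3 counts, which is 0.154 CPM in the largest library and 0.280 CPM in the smallest, and these limits cover counting error only. At this depth the main receptor for the most abundant opioid precursor of these cells was therefore not detected with any addition.

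**Figure D2:**
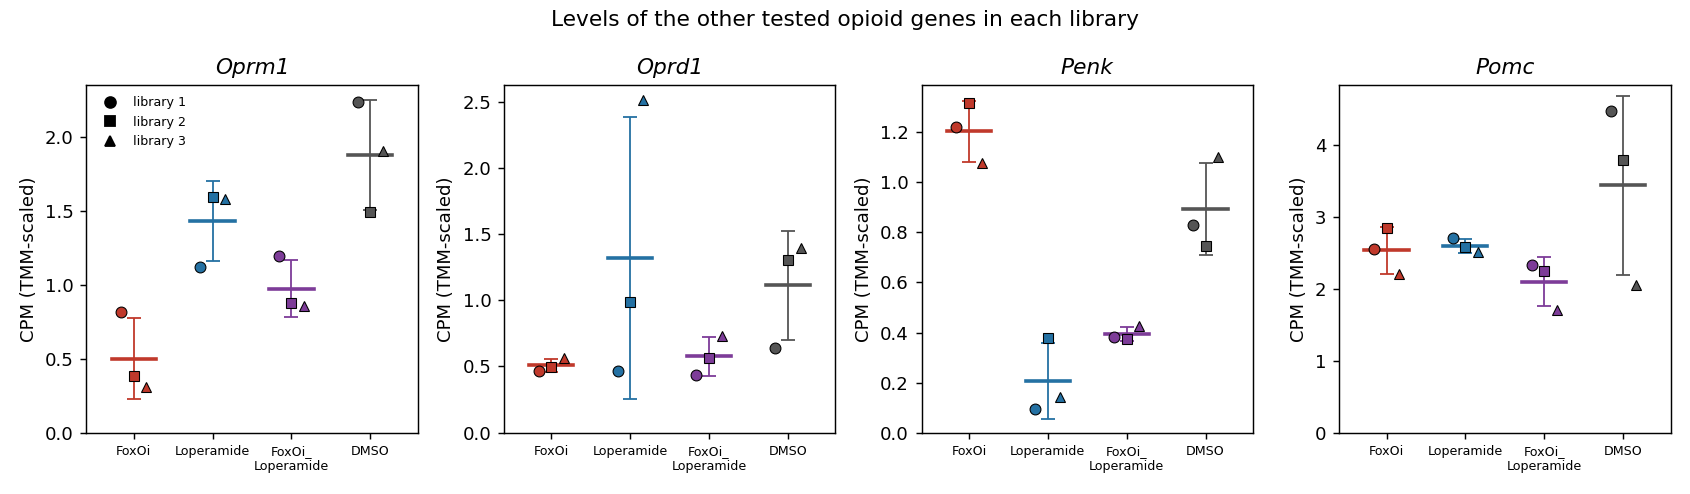
Level of Oprm1, Oprd1, Penk and Pomc in each library of the 4 groups, in CPM of the TMM-scaled library, with a point for each library, a horizontal line for the mean and bars for the SD. Penk is lowest with loperamide (0.206 CPM) and Oprm1 with FoxOi (0.502 CPM), the loperamide libraries of Oprd1 spread from 0.466 to 2.52 CPM, and 1 DMSO library of Pomc lies at the level of the treated ones (2.05 CPM).

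Counted over the members, 2 of the 5 tested fell with FoxOi (Oprm1 and Pdyn), where 40.9% of all genes tested were called, 20.7% higher and 20.3% lower. With loperamide 2 fell (Penk and Pdyn), where 31.9% of all genes were called, 16.1% higher and 15.8% lower. With both compounds 4 fell (Oprm1, Penk, Pdyn and Pomc), where 45.5% were called, 22.3% higher and 23.2% lower. Relative to FoxOi the combination lowered 2 (Penk and Pdyn), where 26.6% were called, 11.5% higher and 15.1% lower, and relative to loperamide 1 (Pdyn), where 38.9% were called, 18.4% higher and 20.5% lower. In the interaction 1 was called below 0, Pdyn, where 9.48% of all genes were called, 3.66% above 0 and 5.82% below. With 5 genes these counts are a description. The comparisons with DMSO share the DMSO libraries. The count with both compounds was 2 without FoxOi_Loperamide replicate 2 or 3, without DMSO replicate 1 or on unfiltered FPKM. The count against loperamide was 2 without Loperamide replicate 1 or without the filter, and that in the interaction 2 without FoxOi replicate 1.

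**Figure D3:**
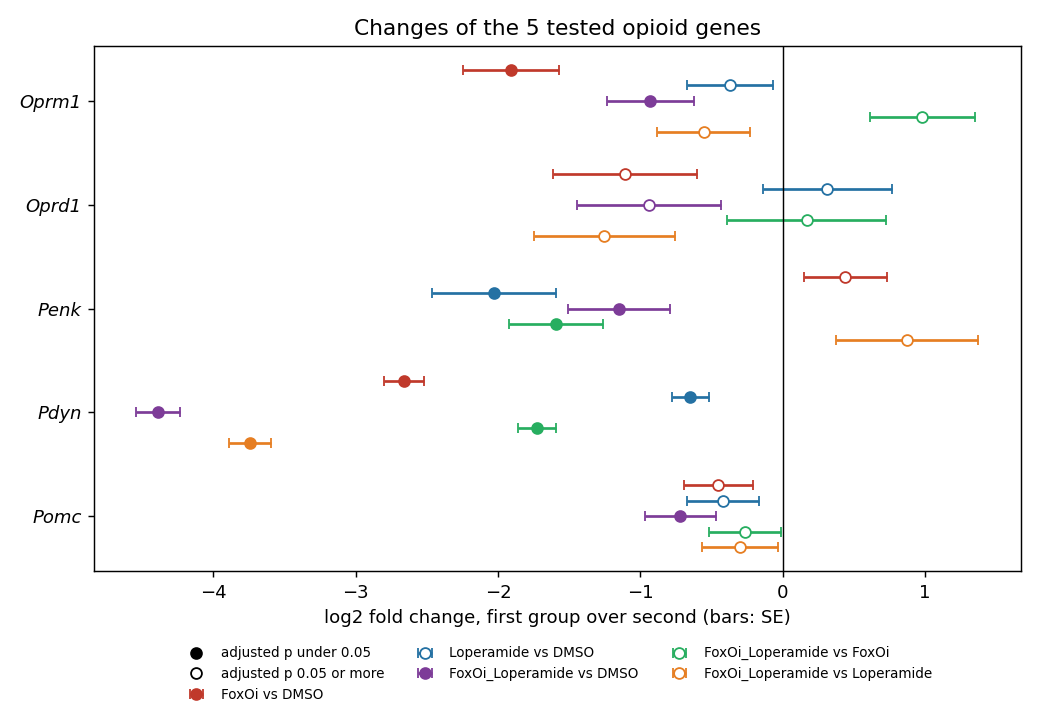
Log2 fold change with bars of 1 SE for the 5 tested members in each comparison, from edgeR's quasi-likelihood fit, with points filled where the adjusted p is under 0.05. Pdyn is below 0 in every comparison, from -0.65 with loperamide to -4.39 with both compounds, Oprm1 is lowest with FoxOi (-1.91) and Penk with loperamide (-2.03).

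Over the 12375 candidate genes (tested, and averaging 1 CPM or more), those whose log2 CPM over the 12 libraries was most like that of Pdyn were Stard13 (Pearson r = 0.994), Rian (0.987) and St6gal1 (0.986). For Oprm1 they were Tmem186 (0.946), the vesicular glutamate transporter gene Slc17a7 (0.940) and Zcchc18 (0.938), and for Pomc Cenpx (0.941), Syne4 (0.914) and Timmdc1 (0.901). These are the extremes of many candidates, over libraries that share their group, and are given as a description. Penk and Oprd1 averaged under 1 CPM, and no likeness was computed for them.

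The genes for processing opioid precursors into peptides were tested in 10 of 10 cases, and most of the changes were falls. The list holds the processing enzymes and also Scg5 and Pcsk1n, which do not encode enzymes. For this list and those below, the shares of all genes tested that rose and fell serve as the background. They were 20.7% and 20.3% with FoxOi, 16.1% and 15.8% with loperamide, and 22.3% and 23.2% with both. With FoxOi 4 fell and 1 rose (list median -0.12, against 0.01 over all genes), with loperamide 5 fell and none rose (-0.22 against 0.02), and with both compounds 7 fell and none rose (-0.71 against 0.01). The 5 falls with loperamide were 3 without DMSO replicate 2 or Loperamide replicate 3, and the rise with FoxOi was 2 without DMSO replicate 3. The 0 rises with loperamide and with both were also 0 at an unadjusted p under 0.05 and with DESeq2 and limma, while without the filter 1 gene rose with loperamide. With FoxOi the smallest adjusted p was that of Pcsk2, the prohormone convertase that completes the cutting of prodynorphin and proenkephalin, at -1.26 ± 0.09 (adjusted p = 1.02e-07), with its chaperone Scg5 at -0.71 ± 0.09. With loperamide it was that of Pcsk1, the other prohormone convertase, at -1.33 ± 0.09 (1.45e-07), and Pam, which amidates peptide ends, at -1.43 ± 0.13 (1.34e-06), while cathepsin L (Ctsl), an alternative processing protease of proenkephalin, was at -0.50 ± 0.10 (0.00144). With both, Pcsk1 (-1.28 ± 0.09), Pcsk2 (-1.25 ± 0.09) and Pam (-1.90 ± 0.13) were all lower. Of the enzymes that break the peptides down, 6 of 8 were tested: 3 fell and 1 rose with FoxOi (list median -0.37, against 0.01 over all genes), 3 fell and 1 rose with loperamide (-0.29 against 0.02), and 4 fell and 1 rose with both (-0.62 against 0.01). Ece1, a gene for an endothelin-converting enzyme, fell by 0.76 ± 0.09 with FoxOi, 0.72 ± 0.09 with loperamide and 1.40 ± 0.09 with both.

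The subunits of the G proteins that opioid receptors use mostly fell where the inhibitor was present. Of 14 tested (of 18), 9 fell and 1 rose with FoxOi (list median -0.30, against 0.01 over all genes), 1 fell and 2 rose with loperamide (-0.01 against 0.02), and 9 fell and 1 rose with both (-0.40 against 0.01). Of all genes tested 20.3% fell with FoxOi, 15.8% with loperamide and 23.2% with both. The difference between the counts of the list was not tested as such. Gnao1, the neuronal and endocrine alpha subunit of Go, fell by 0.74 ± 0.07 with FoxOi (adjusted p = 2.09e-06) and by 0.64 ± 0.07 with both (6.51e-06), and the gamma subunit Gng12 fell by 0.94 ± 0.13 with FoxOi and by 1.42 ± 0.13 with both. With loperamide the alpha subunits Gnaz (0.34 ± 0.09) and Gnai2 (0.37 ± 0.12) were called higher and Gng12 lower (-0.35 ± 0.12), and all 3 calls were lost without Loperamide replicate 1 (adjusted p = 0.0622, 0.114 and 0.157). Those of Gnai2 and Gng12 were also lost without DMSO replicate 2 (0.0799 and 0.101) or 3 (0.119 and 0.132), and that of Gng12 without Loperamide replicate 2 (0.0932). The 1 rise with both compounds was 2 without DMSO replicate 1, and 0 without DMSO replicate 2 or 3 or without FoxOi_Loperamide replicate 1 or 3.

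Among the effectors, adenylyl cyclases and the channels that opioid receptors act on, 12 of 15 were tested. With FoxOi 5 rose and 2 fell (list median 0.55, against 0.01 over all genes), with loperamide 3 rose and none fell (0.08 against 0.02), and with both 4 rose and 5 fell (-0.40 against 0.01). Among all genes tested 40.9% were called with FoxOi, 31.9% with loperamide and 45.5% with both. The 5 falls with both were 3 without FoxOi_Loperamide replicate 2. The 0 falls with loperamide were 1 at an unadjusted p under 0.05, 0 with DESeq2 and with limma on log2(FPKM + 0.1), 1 with limma on log2(FPKM + 1), 1 in the fit to the groups compared alone and 2 without the filter. Adcy3 and Cacna1b, the pore of the N-type calcium channel, rose with FoxOi (1.08 ± 0.15 and 0.94 ± 0.12) and with both (0.93 ± 0.15 and 0.81 ± 0.12). With loperamide they were called at 0.43 ± 0.15 and 0.36 ± 0.13, calls lost without Loperamide replicate 3 (adjusted p = 0.193 and 0.209), DMSO replicate 1 (0.135 and 0.108) or DMSO replicate 2 (0.0799 and 0.160). Adcy6 fell by 0.85 ± 0.07 with FoxOi and was called at 0.28 ± 0.07 with loperamide, a call lost without the filter (0.0778). Among the 5 genes that fell with both compounds were Adcy5 (-3.20 ± 0.55) and Adcy6 (-0.28 ± 0.07). Kcnj3, a subunit of the potassium channel that Gi/o signalling opens, had 18, 21 and 41 counts in FoxOi libraries, 4, 4 and 4 in Loperamide, 14, 17 and 27 in FoxOi_Loperamide, and 3, 4 and 2 in DMSO. Kcnj3 passed the filter only through the groups with the inhibitor, where it was high. Its counts are therefore given without a test, and its calls in the list counts are a description. Its partner Kcnj5 had 0 counts in every library.

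A list of kinases, arrestins and RGS proteins, which end receptor signalling, was tested in 21 of 23 cases. It also holds Gprasp1 and Gprasp2, which belong to none of these classes and are included in the counts. As background, 40.9% of all genes were called with FoxOi, 31.9% with loperamide and 45.5% with both. With FoxOi 5 rose and 8 fell (list median -0.09, against 0.01 over all genes), with loperamide 8 rose and 4 fell (-0.11 against 0.02), and with both 5 rose and 8 fell (-0.36 against 0.01). The rises with loperamide, more in number than the falls while the list median was below 0, were 5 without DMSO replicate 1 and 4 without DMSO replicate 2 or Loperamide replicate 3, and the falls 2 without DMSO replicate 1 or 2 or Loperamide replicate 1. Rgs2, which shortens signalling by G proteins, rose by 1.69 ± 0.10 with FoxOi (adjusted p = 2.18e-08), and with both compounds it was 2.14 ± 0.11 lower than with FoxOi alone (4.82e-09), with an interaction of -1.83 ± 0.15 (1.18e-05). Grk5, a kinase that phosphorylates activated receptors, rose by 0.97 ± 0.10 with loperamide (6.51e-06) and by 1.31 ± 0.10 with both over FoxOi (3.36e-07). Rgs9, whose product speeds up the Gi/o cycle in striatal neurons, fell by 1.54 ± 0.10 with FoxOi and by 1.72 ± 0.10 with both.

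Other peptides and receptors related to the opioid system were mostly too low to test, with 3 of 15 tested, and none was called with loperamide. These 0 calls were also 0 at an unadjusted p under 0.05 and with DESeq2 and limma. With both compounds Mrap, an accessory protein of melanocortin receptors, was called at -1.18 ± 0.41 (adjusted p = 0.0303), which was no longer called when FoxOi_Loperamide replicate 2 (0.0937) or 3 (0.0768) or DMSO replicate 1 (0.161) or 2 (0.0624) was left out. Pnoc, the precursor of nociceptin, the ligand of Oprl1, was too low to be tested: it had 10, 4 and 19 counts in FoxOi libraries, 0, 0 and 0 in Loperamide, 0, 0 and 1 in FoxOi_Loperamide, and 4, 1 and 0 in DMSO. The FoxOi libraries held 33 of these counts, against 5 in DMSO, and their ranges met at 4. The melanocortin receptors, which bind the other products of Pomc, had between 0 and 5 counts in any library.

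Loperamide also binds calcium channels and the hERG potassium channel, among other proteins, and is carried by ABCB1. Of 9 such genes 8 were tested: 3 rose and 1 fell with FoxOi (list median 0.09, against 0.01 over all genes), 3 rose and 3 fell with loperamide (-0.17 against 0.02), and 3 rose and 4 fell with both (-0.16 against 0.01). The shares of all genes called were 40.9% with FoxOi, 31.9% with loperamide and 45.5% with both. The 1 fall with FoxOi was 2 without FoxOi replicate 1 or DMSO replicate 3. The L-type calcium channel genes Cacna1d (0.70 ± 0.09, adjusted p = 2.67e-05) and Cacna1c (0.88 ± 0.13, 1.13e-04) rose with loperamide. Abcb1b, a gene for the drug pump, rose by 1.19 ± 0.12 with FoxOi and by 1.19 ± 0.12 with both, each against DMSO. The combination differed from FoxOi by -0.01 ± 0.11 (adjusted p = 0.975). With loperamide Abcb1b was at -0.15 ± 0.13 (0.400). Kcnh2, the hERG channel gene, had an interaction of -1.40 ± 0.14 (3.86e-05).

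Targets of CREB, the transcription factor that cyclic AMP activates, were all tested, 20 of 20. With FoxOi 9 rose and 5 fell (list median 0.54, against 0.01 over all genes), with loperamide 3 rose and 8 fell (-0.16 against 0.02), and with both 5 rose and 9 fell (-0.25 against 0.01). Relative to FoxOi the combination gave 3 rises and 11 falls (-0.67 against 0.00), where 11.5% of all genes rose and 15.1% fell. Against DMSO 40.9% of all genes were called with FoxOi, 31.9% with loperamide and 45.5% with both. With loperamide the neuropeptide precursor gene Vgf fell by 1.72 ± 0.08 (adjusted p = 7.11e-09), Crem, which encodes a repressor induced by cyclic AMP, by 1.62 ± 0.12 (3.33e-07) and the nuclear receptor gene Nr4a2 by 1.84 ± 0.21 (1.63e-05). With FoxOi the phosphodiesterase gene Pde4b fell by 2.06 ± 0.12 (1.12e-08) and Gem, a small GTPase gene, rose by 2.57 ± 0.17 (3.78e-08).

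**Figure D4:**
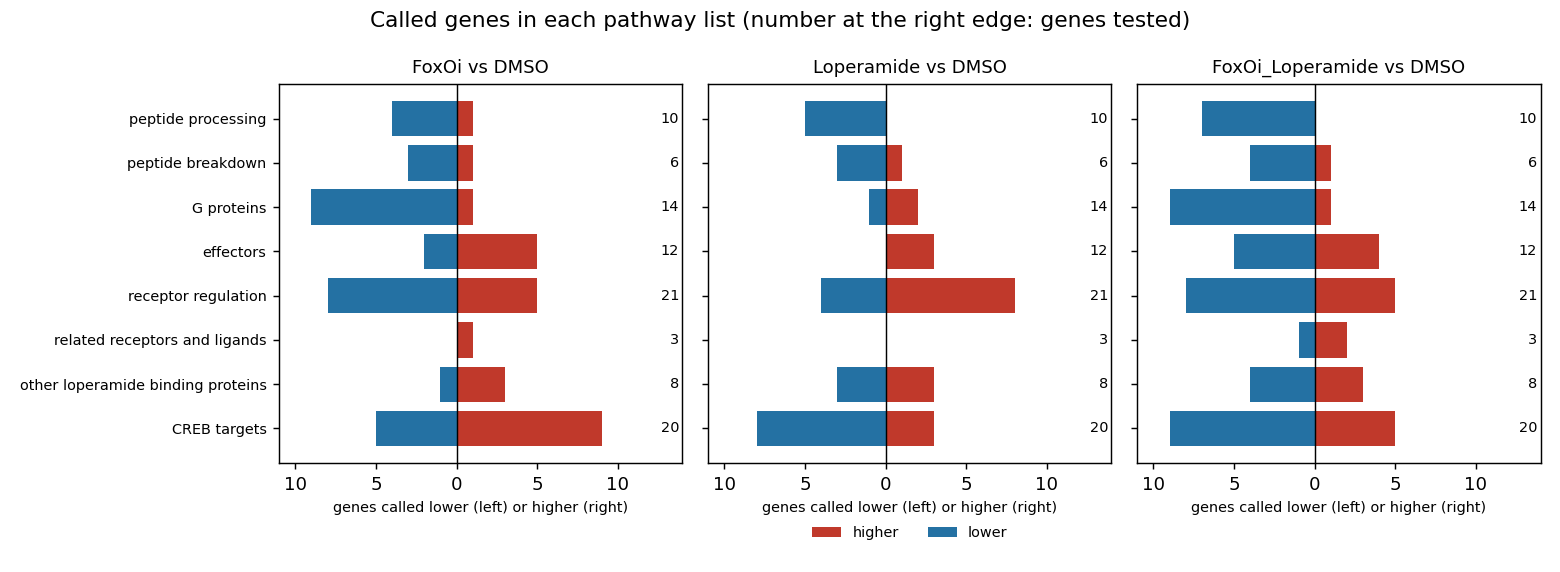
Number of genes called higher (to the right of 0) and lower (to the left) in each of the 8 pathway lists, with FoxOi, Loperamide and FoxOi_Loperamide against DMSO. Of the 10 peptide processing genes 7 are lower with both compounds and none higher, and of 14 G protein genes 9 are lower with FoxOi and 1 with loperamide. Over all genes tested 20.3% are lower with FoxOi, 15.8% with loperamide and 23.2% with both.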

How the data were processed

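Read counts per gene and FPKM values were deposited by the authors. Per the submitters' processing notes, Picard 2.19.2, STAR 2.7.5a and DESeq2 were used with the mm10 (GRCm38) build, and per the labels' protocols the mRNA kit was stranded. How reads were counted, and by which strand, is not given in the sources used here. FPKM as deposited equal the counts divided by size factors and transcript length, with size factors within 0.226% of those computed from the counts. Counts were tested with edgeR 4.0.16 (R 4.3.3): filterByExpr by group (minimum count 10, total 15), TMM scaling, prior count 0.125, and a robust quasi-likelihood fit to all 12 libraries with group as the only term, Benjamini-Hochberg adjusted over 16808 genes. The SE is the absolute log2 fold change over the square root of F. DESeq2 1.42.0 and limma 3.58.1 on log2(FPKM + 0.1 or + 1) were alternatives. The script was tested on simulated data. Members and lists were chosen with earlier results of these data known. The members were named throughout, along with the 3 genes most like each member of at least 1 CPM and, per list and comparison, up to 3 genes with the smallest adjusted p, while Kcnj5, Pnoc and the melanocortin receptors, too low to test, were named after their counts were seen. Libraries of 1 group differed beyond counting noise (chi-square per degree of freedom 4.99 to 31.6), so no library was counted as deposited more than once. Some members of the gene lists are not reported here.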

Additional observations from a re-analysis of the deposited data

Results flagged for a closer look

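The effect of loperamide on Pdyn differed with and without the FoxO1 inhibitor: the test of the difference itself gave a log2 interaction of -1.08 ± 0.19 (adjusted p = 0.00190 by edgeR's quasi-likelihood test over 16808 genes), with loperamide at -1.73 ± 0.14 in the presence of the inhibitor and -0.65 ± 0.13 in its absence. It was negative and past the threshold in all 19 alternatives, between -1.22 and -0.95, with an adjusted p of at most 0.0172. The groups hold 3 libraries each, so no single library was tested for standing apart.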

How the results depend on the processing

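Pdyn kept its sign and its call in every comparison under each alternative, as did Oprm1 with FoxOi and Penk with loperamide and with both compounds against FoxOi. The count of members called with both compounds against DMSO was 2 on unfiltered FPKM (pseudocount 0.1) and between 2 and 4 when single libraries were left out. That against loperamide was 2 with no filter and between 1 and 2 without single libraries, and that in the interaction between 1 and 2. Library codes give each group the same 3 numbers, but the numbers do not pair the libraries by the labels. Same-numbered libraries deviated together in 17 of 18 pairs of libraries over r = 0.1 (0.0915 to 0.507), and 12 of 12 libraries correlated best with their own number, a hint from the data. With the replicate number as a block, 8179 genes were called with loperamide, 7504 with both against FoxOi and 4334 in the interaction (against 5370, 4465 and 1594), and the members called were 3 with FoxOi, 2 with loperamide, 5 with both, 3 with both against FoxOi, 2 against loperamide and 2 in the interaction. Oprd1 was then called with FoxOi (-1.14 ± 0.38, adjusted p = 0.0113), with both (0.0322) and with both against loperamide (0.00869), and Oprm1 with both against FoxOi (0.0304) and in the interaction (0.0352), and with loperamide 1 effector gene was lower and 1 peptide processing gene higher. The signs of low members turned in 9 cases. Without single libraries Oprd1 lay between -0.56 and 0.67 with loperamide and between -0.0387 and 0.343 with both against FoxOi. Its interaction was 0.0602 on FPKM with pseudocount 0.1, filtered or not, and 0.73, 0.03 and 0.19 without Loperamide replicate 3, FoxOi_Loperamide replicate 1 and DMSO replicate 1. The interaction of Penk was -0.0169 on FPKM with pseudocount 1, and that of Pomc between -0.0251 and 0.444 without single libraries. The cause was not tested. Of the 1424 alternative list counts 191 differed by over 1.5 times, and of the 1815 alternative values for named list genes 117 lost their call and none changed sign. Log2 changes of members with few counts are smaller on FPKM with a pseudocount (at 1, Penk with loperamide -0.50 and Oprm1 with FoxOi -0.25), and counts under 10 in some libraries limit Oprm1, Oprd1, Oprl1 and Penk.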
